A study of Mus musculus with 2 samples.

Results

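The nuclear receptor family is described here in G1E-ER4 cells through 47 mouse genes, chosen by name as a family and kept whether or not they were detected. The family is 47 of the 43346 Ensembl genes in each gene table, and all 47 are protein-coding. Paired-end RNA-seq of RNA titled as polyadenylated was made from G1E-ER4, an immortalized mouse erythroid line labelled male, postnatal and of age 0 days. The parent line G1E lacks Gata1, and ER4 carries GATA1 as a fusion protein that estradiol activates through ligand-binding sequence of an estrogen receptor. The labels give Gata1 as restored and differentiation as induced with estradiol (E2), without dose or duration, and this holds for every library. The libraries, 2 in all, belong to 1 group, as biological replicates 1 and 2 by label. They name 1 biosample record in common, so the spread between them may be technical, and with no uninduced cells no effect of estradiol or of Gata1 can be read from them.

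Nuclear receptors are transcription factors that bind DNA through a zinc finger domain and, in most members, bind a small lipid-soluble ligand through a second domain. Steroid receptors mostly act as dimers of their own kind, whereas receptors for thyroid hormone, retinoic acid, oxysterols and fatty acids pair with a retinoid X receptor, RXR. Without ligand many recruit corepressors such as NCOR1, and with ligand they exchange these for coactivators. In red cell precursors the glucocorticoid receptor is known for its part in progenitor expansion under stress, and the orphan receptors TR2 and TR4 for repression of embryonic and fetal globin genes.

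Nr1h2, encoding the oxysterol receptor LXR beta, and Rxrb, encoding RXR beta, were the most abundant members, and most other members were not detected. Expression is given in TPM, the authors' abundance of transcripts corrected for length and depth, and detection means at least 1 TPM in each library. By that rule 14 of 47 members (29.8%) were detected, against 39.0% of 21474 protein-coding genes. The difference between these shares was not tested. The detected members had a median of 28.5 TPM, and all detected protein-coding genes 20.5 TPM. Over all 47 members the median was 0.02 TPM, near the 0.025 TPM of all protein-coding genes. Summed TPM of the family was 881 in replicate 1 and 773 in replicate 2, and the detected members held 99.7% and 99.6% of it. Nr1h2 and Rxrb together held 65.5% of the family's TPM in replicate 1 and 65.9% in replicate 2.

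Depth was 68901065 estimated counts for replicate 1 and 51923116 for replicate 2, of which 97126 and 65540 fell in the family. Where a member has no count, up to 3 counts remain possible, or 4.35e-06% of replicate 1 and 5.78e-06% of replicate 2. Such limits, and the intervals given with ratios, cover counting error only. The labelled cell type was checked against marker genes. All 10 erythroid markers were detected, with summed TPM of 18709 in replicate 1 and 21275 in replicate 2. Most of these sums came from globin genes, Hba-a1 at 6746 and 8936 TPM and Hbb-bs at 7940 and 7235 TPM. Estimated counts of Hba-a1 in both libraries and of Hbb-bs in replicate 1 were not whole. Since this arises where reads are divided among similar sequences, these globin levels are uncertain. Gata1, also in this list, had 1498 and 2430 TPM, which may include the GATA1 fusion. Detection of Gata1 is therefore no check of the cell type. Of the granulocyte and macrophage markers 1 of 8, Cd68, was detected, with sums of 1.28 and 1.44 TPM, of mast cell markers 2 of 5, with 57.2 and 59.4 TPM, and of megakaryocyte markers 2 of 5, with 50.5 and 66.5 TPM. The mast cell markers detected were Kit, which erythroid progenitors also express, at 53.6 and 55.3 TPM and Hdc at 3.16 and 3.69 TPM. The megakaryocyte markers detected were Gp1ba at 31.0 and 34.9 TPM and Itga2b at 18.2 and 29.3 TPM. No lymphocyte, hepatocyte, fibroblast, endothelial or pluripotent stem cell marker was detected. The macrophage markers Adgre1 and Lyz2, the mast cell markers Mcpt8 and Fcer1a and the hepatocyte markers Alb and Ttr had no count in either library. The part of the detected mast cell and megakaryocyte markers in the family's levels was not tested. In bulk RNA, expression in fewer cells and less RNA per cell cannot be told apart.

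**Figure D1:**
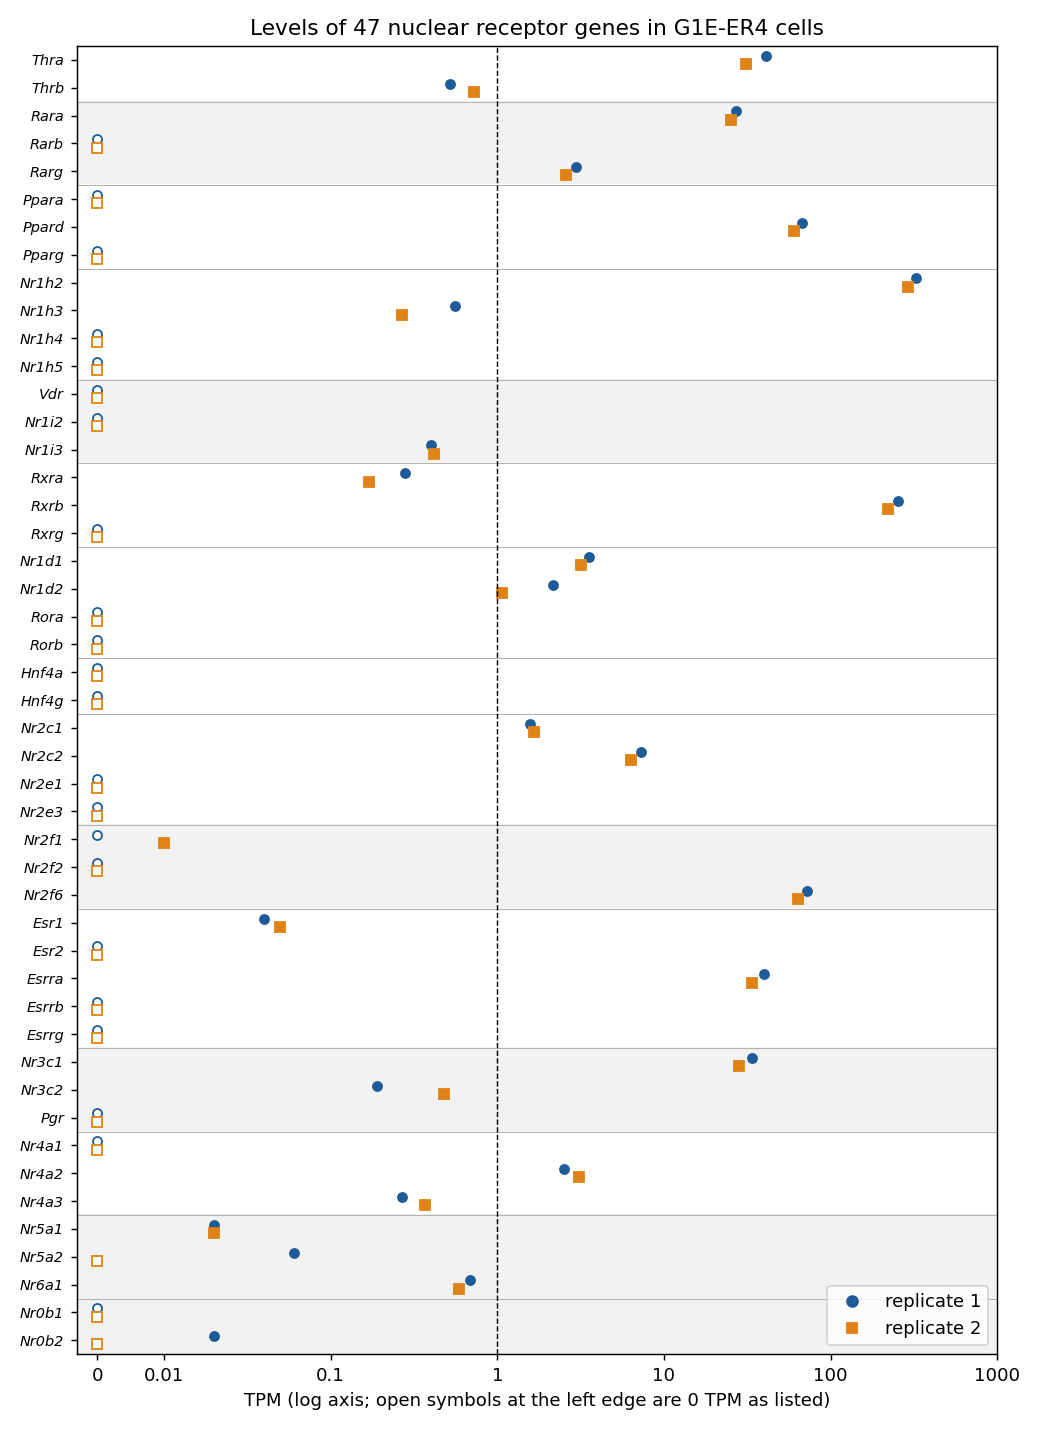
TPM (log axis) of the 47 nuclear receptor genes in replicate 1 (circles) and replicate 2 (squares), grouped by receptor class, with a dashed line at 1 TPM and open symbols for values listed as 0. 14 genes lie right of the line in both libraries, led by Nr1h2 and Rxrb, and 20 genes had no count in either library.

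Promoter sequences are shown for Nr1h2, the most abundant member, and for Rara and Rarg. These encode the retinoic acid receptors alpha and gamma and have alternative annotated starts. Each stretch is the 150 bases before a RefSeq start (GRCm38.p6, the same build as mm10), written 5′ to 3′ on the gene's strand in lower case, with each CpG dinucleotide in capitals. None of these stretches overlaps an annotated exon. The transcript shares that follow are percent of the gene's TPM.
Nr1h2 at chr7:44553966-44554115, minus strand: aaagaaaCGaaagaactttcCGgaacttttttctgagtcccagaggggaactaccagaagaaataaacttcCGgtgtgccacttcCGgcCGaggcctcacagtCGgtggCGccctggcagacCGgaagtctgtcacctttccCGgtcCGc
Rara upstream start at chr11:98937546-98937695, plus strand: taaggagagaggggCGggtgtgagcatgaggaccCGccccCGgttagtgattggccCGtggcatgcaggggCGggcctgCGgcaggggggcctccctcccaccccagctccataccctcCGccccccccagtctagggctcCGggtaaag
Rara second start at chr11:98939561-98939710, plus strand: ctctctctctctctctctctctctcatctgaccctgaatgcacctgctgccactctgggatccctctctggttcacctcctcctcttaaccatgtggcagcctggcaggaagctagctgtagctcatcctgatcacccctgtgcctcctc
Rarg upstream start at chr15:102257523-102257672, minus strand: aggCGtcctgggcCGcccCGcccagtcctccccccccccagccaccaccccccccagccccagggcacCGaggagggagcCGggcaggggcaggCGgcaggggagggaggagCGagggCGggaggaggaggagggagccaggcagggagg
Rarg downstream start at chr15:102246501-102246650, minus strand: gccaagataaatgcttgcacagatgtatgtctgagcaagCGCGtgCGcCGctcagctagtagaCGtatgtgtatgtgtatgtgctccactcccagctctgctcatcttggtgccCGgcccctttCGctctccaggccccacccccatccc

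The Nr1h2 stretch holds 10 CpG, and transcripts that begin within 60 bases of its start carried 84.9% of the gene's TPM in replicate 1 and 78.7% in replicate 2. Rara was split mainly between the printed starts. Transcripts from the upstream start, Rara-204 and Rara-201, carried 42.6% and 40.2%. Those from the second start, Rara-207 and Rara-206, carried 47.1% and 51.8%, all of it in Rara-207. Rara-202, which begins at 98960412, at none of the RefSeq starts used, carried 10.3% and 7.94%. The printed stretches before these starts hold 8 CpG upstream and 0 CpG at the second start, and each start carried a large part of Rara. Rarg lay almost wholly at the downstream start, where Rarg-202 carried 95.8% and 92.5%, while Rarg-201 from the upstream start carried 0% and 1.31%. These stretches hold 7 CpG downstream and 8 CpG upstream.

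Over the RefSeq windows of 300 bases, from 250 before to 50 after each start, 12 of the 14 detected members matched, all but Thra and Nr3c1. Their 17 windows had a median of 20 CpG and 66.3% GC. These windows follow RefSeq starts and were not chosen by use in these cells. Transcripts beginning within 60 bases carried 0% of TPM at the Nr2c1 start, at Rara 98964872 and at Rxrb 34032350. For Nr2c1 the 0% rests on the 60-base limit. The transcript with 100% of its TPM in both libraries begins at 94148023, beyond 60 bases of the RefSeq start at 94147931. At the Nr2c2 start such transcripts carried 8.69% in replicate 1 and 11.4% in replicate 2, so its leading transcript begins elsewhere. The Rara windows at 98937696 and 98937718 overlap. The 31 matched members that were not detected had 47 windows with a median of 10 CpG and 56.0% GC. The 16290 matched protein-coding genes had 19901 windows with 14 CpG and 57.0% GC. Protein-coding genes were taken here, and for the transcripts below, whether or not they were detected. A comparison with detected protein-coding genes alone was not made. GC content was also higher in the transcripts. The longest transcript of the detected members had a median GC content of 54.5% (range 41.8 to 67.3%), that of members not detected 50.7% (40.9 to 60.2%), and that of protein-coding genes 48.7%. Levels moved with GC content in these libraries. Among protein-coding genes with a mean of 10 or more counts, cut into 10 equal bins by GC, the median TPM was 34.7 in replicate 1 and 32.3 in replicate 2 in the highest bin, and 4.34 and 4.04 in the lowest. The part of GC content in the family's levels was not tested.

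The letters AGGTCA, the core element to which many receptors bind, were searched on both strands of these windows. They occurred in 3 windows of detected members (17.6%), 9 windows of members not detected (19.1%) and 14.4% of all windows. In the detected members they lay at position -77 from the start of Nr1d2, at +34 of a start of Rara and, on the opposite strand, at -225 of the upstream start of Rarg. That Rara start, at 98964872, is neither of those printed, and no transcript model begins within 60 bases of it. The upstream start of Rarg carried 0% and 1.31% of the TPM of Rarg in replicates 1 and 2. The letters AGATAA or TGATAA, forms bound by GATA factors, occurred in 1 window of a detected member (5.88%), 6 of members not detected (12.8%) and 15.2% of all windows. That window was the downstream start of Rarg, where AGATAA begins at position -146 inside the printed stretch. No match overlapped another in the detected members, and a match in letters is no evidence of binding.

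Receptors that pair with RXR come first. Thra, encoding thyroid hormone receptor alpha, stood at 40.9 TPM in replicate 1 and 31.3 in replicate 2 (mean 36.1 ± 6.84 TPM, SD, n = 2). Thra (ENSMUSG00000058756) lies on the plus strand of chromosome 11, from 98740638 to 98769006 in mm10. Thrb, the beta form, had 0.52 and 0.73 TPM from 160 and 170 counts, so Thra was 78.7 times Thrb in replicate 1 and 42.8 times in replicate 2. Both libraries placed all but a few percent of this class in Thra, with 98.7% and 97.7% of its TPM. Rara had 27.2 TPM in replicate 1 and 25.4 in replicate 2 (mean 26.3 ± 1.27 TPM, SD, n = 2), and Rarg 2.95 and 2.59 TPM. Rara was 9.21 times Rarg in replicate 1 and 9.80 times in replicate 2, and Rarb had no count in either library.

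Of the fatty acid receptors of the PPAR class, Ppard, the broadly expressed delta form, was detected, at 67.4 TPM in replicate 1 and 60.02 in replicate 2 (mean 63.7 ± 5.21 TPM, SD, n = 2). Ppard (ENSMUSG00000002250) lies on the plus strand of chromosome 17, from 28232700 to 28301474. Ppara, the liver form, and Pparg, the fat cell form, had no count in either library, against 11053 and 8171 counts for Ppard. Nr1h2 had 323 TPM in replicate 1 and 289.6 in replicate 2 (mean 306 ± 23.4 TPM, SD, n = 2), above 94.6% of detected protein-coding genes. The gene (ENSMUSG00000060601) lies on the minus strand of chromosome 7, from 44549616 to 44553951 in mm10. Its paralog Nr1h3, encoding LXR alpha, had 0.56 and 0.27 TPM from 16 and 13 counts. Nr1h2 was thus 576 times Nr1h3 in replicate 1 and 1073 times in replicate 2, a divisor that rests on few counts. Nr1h4, encoding the bile acid receptor FXR, and Nr1h5 had no count.

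Rxrb, the partner of the receptors above, had 254 TPM in replicate 1 and 219.8 in replicate 2 (mean 237 ± 24.2 TPM, SD, n = 2), above 92.7% of detected protein-coding genes. It (ENSMUSG00000039656) lies on the plus strand of chromosome 17, from 34031812 to 34038399. Rxra, encoding RXR alpha, had 0.28 and 0.17 TPM from 43 and 16 counts, and Rxrg had none. Rxrb made up 99.9% of the TPM of its class in each library. It exceeded Rara 9.35 times in replicate 1 and 8.66 times in replicate 2, and Thra 6.21 and 7.03 times. Nr1h2 was the member above it, at 1.27 times Rxrb in replicate 1 and 1.32 times in replicate 2. The vitamin and xenobiotic receptors were not detected: Vdr had 1 and 0 counts, Nr1i2 none, and Nr1i3, encoding the receptor CAR, 0.40 and 0.42 TPM. For Nr1i3 74.9% of exonic bases are shared with Tomm40l, a mitochondrial import gene on the opposite strand at 61.5 TPM in replicate 1 and 51.4 in replicate 2. No source used here says whether counting used strand, so reads of overlapping genes may not be separated here.

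**Figure D2:**
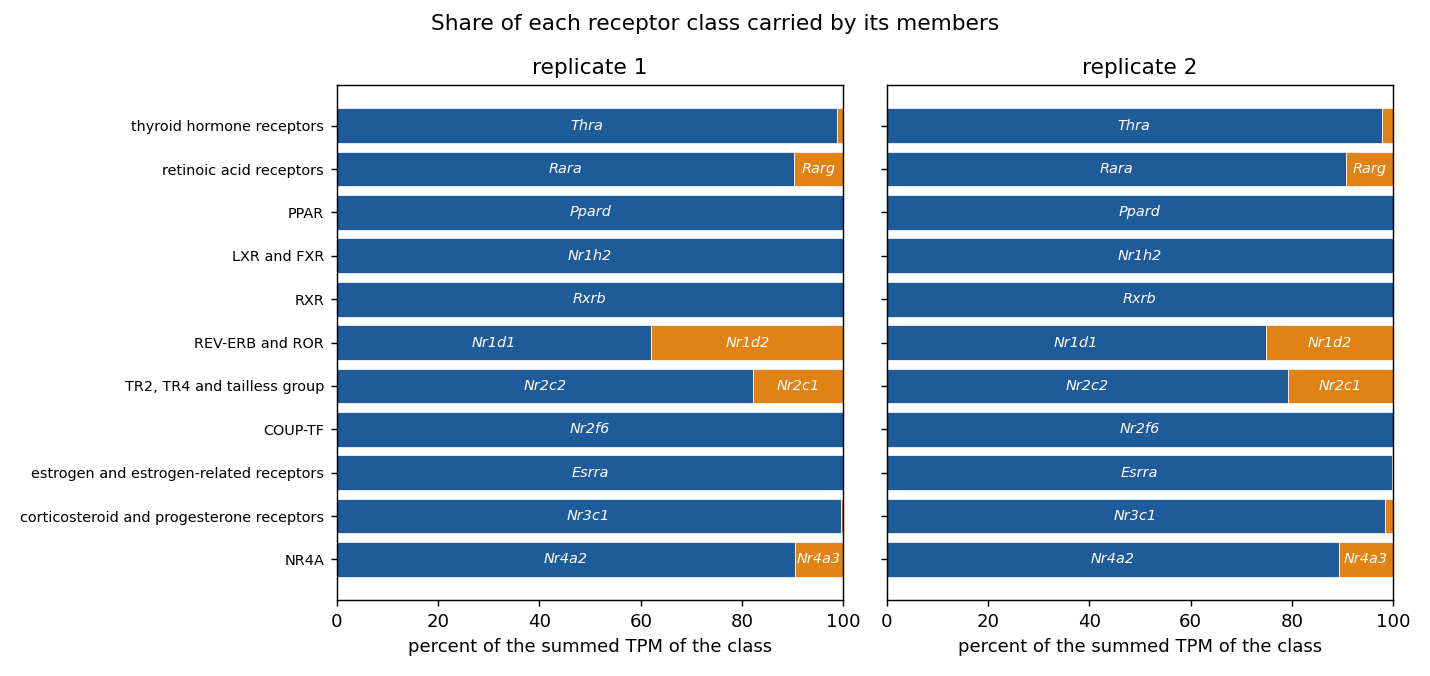
Share of the summed TPM of each of the 11 receptor classes with a detected member (percent, horizontal axis) carried by each gene, for replicate 1 (left) and replicate 2 (right). In 8 classes the leading gene is the only detected member, and Nr1d1 and Nr1d2 divide theirs most evenly, with Nr1d1 at 62.1% and 74.9%.

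Among orphan receptors, Nr2f6, encoding the COUP-TF relative EAR2, stood at 72.4 TPM in replicate 1 and 63.9 in replicate 2 (mean 68.2 ± 6.02 TPM, SD, n = 2). It (ENSMUSG00000002393) lies on the minus strand of chromosome 8, from 71374123 to 71381960. Its relatives Nr2f1 and Nr2f2 had at most 1 count. Exons of Nr2f6 share 1622 bases, 54.4% of its exonic length, with Ocel1 on the opposite strand, which had 72.2 and 52.1 TPM, so the level of Nr2f6 is uncertain. Nr2c2, encoding TR4, had 7.26 TPM in replicate 1 and 6.38 in replicate 2, and Nr2c1, encoding its dimer partner TR2, 1.58 and 1.67 TPM. Nr2c2 was 4.59 times Nr2c1 in replicate 1 and 3.82 times in replicate 2. Of the exonic bases of Nr2c2 30.7% are shared with Mrps25, which had 12.9 and 14.4 TPM. The circadian repressors REV-ERB alpha and beta were both detected. Nr1d1, encoding the alpha form, had 3.55 TPM in replicate 1 and 3.19 in replicate 2, and Nr1d2, the beta form, 2.17 and 1.07 TPM. Rora and Rorb, of the activating ROR class that competes with REV-ERB for DNA, had no count, nor had Hnf4a and Hnf4g, the liver and gut receptors of the HNF4 class, or Nr2e1 and Nr2e3.

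In the steroid receptor branch, Nr3c1, encoding the glucocorticoid receptor, had 33.6 TPM in replicate 1 and 28.0 in replicate 2 (mean 30.8 ± 3.93 TPM, SD, n = 2). Nr3c2, encoding the mineralocorticoid receptor, had 0.19 and 0.48 TPM from 50 and 38 counts. Nr3c1 thus held 99.4% of the TPM of its class in replicate 1 and 98.3% in replicate 2, and Pgr, encoding the progesterone receptor, had no count. Esrra, encoding the estrogen-related receptor alpha, an orphan receptor that drives mitochondrial genes, had 39.7 TPM in replicate 1 and 33.9 in replicate 2 (mean 36.8 ± 4.07 TPM, SD, n = 2). It (ENSMUSG00000024955) lies on the minus strand of chromosome 19, from 6910977 to 6921813. Esrrb, Esrrg and the estrogen receptor gene Esr2 had no count. Esr1, encoding estrogen receptor alpha, had 2 counts in each library. The ligand-binding domain of the GATA1 fusion is part of a transgene and need not be counted at Esr1. Low Esr1 counts therefore say nothing of the fusion.

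The immediate early receptor genes were low. Nr4a2, encoding NURR1, had 2.53 TPM in replicate 1 and 3.09 in replicate 2, Nr4a3 0.27 and 0.37 TPM, and Nr4a1 no count. Nr6a1, encoding the germ cell nuclear factor, had 0.69 and 0.59 TPM from 184 and 138 counts. Nr5a1 and Nr5a2, receptors of steroid-producing tissue and of liver, had at most 3 counts. Nr0b2, which lacks a DNA-binding domain, had 1 and 0 counts, and Nr0b1, of the same kind, none. Of the 33 members not detected, 20 had no count in either library, 6 had at most 3 counts, and 7 had a mean of 10 or more counts. Those 7 were Nr6a1, Thrb, Nr1h3, Nr1i3, Nr3c2, Nr4a3 and Rxra. Members just above the minimum were Nr1d2, Nr2c1 and Nr4a2, and those just under it Nr6a1, Thrb and Nr1i3.

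The order of the detected members by mean TPM was Nr1h2, Rxrb, Nr2f6, Ppard, Esrra, Thra, Nr3c1, Rara, Nr2c2, Nr1d1, Nr4a2, Rarg, Nr2c1 and Nr1d2. The first 8 reached at least 20 TPM in both libraries and the last 6 under 10 TPM in both. The values of both libraries overlapped between the neighbours Nr2f6 and Ppard, Esrra and Thra, Thra and Nr3c1, Nr4a2 and Rarg, and Nr2c1 and Nr1d2. The other neighbours in this order did not overlap. The SD was between 3.92% and 48.0% of the mean over the 14 members, with a median of 9.16%, and Nr1d2 was the highest.

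Of the 47 members, 21 had enough counts to be compared between the libraries. Counts were compared as the ratio of replicate 1 to replicate 2 after TMM scaling, a correction for library size and composition, for genes averaging 10 or more counts. Of these 21 members 0 were 2-fold or more apart, against 9.73% of 10863 genes (2.0% higher in replicate 1 and 7.73% higher in replicate 2). There is no p-value for this, since each side is 1 library. The median log2 ratio of the 21 members was -0.01 and that of all genes 0.01, with an SD over all genes of 0.73. By library totals in place of TMM, which moves the median of all genes to 0.12, Rxra and Nr1d2 passed 2-fold, and on the log2(TPM + 0.1) scale Nr3c2 reached 2-fold, lower in replicate 1. In TPM as deposited, which also moves with the estimated transcript lengths, Nr1d2 (2.17 and 1.07), Nr1h3 (0.56 and 0.27) and Nr3c2 (0.19 and 0.48) were more than 2-fold apart.

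Nr1d2 came nearest, with 286 counts in replicate 1 and 103 in replicate 2. Its ratio was 1.94 with a 95% Clopper-Pearson interval of 1.55 to 2.46. Rxra followed at 1.88, but with an interval of 1.04 to 3.58 from its few counts. Thrb had the lowest ratio, 0.659 with an interval of 0.528 to 0.823. Ratios of the other detected members ran much closer to 1. Thra stood at 1.23 (1.18 to 1.29), Nr2f6 at 1.18 (1.14 to 1.23), Esrra at 1.15 (1.09 to 1.21) and Nr4a2 at 0.839 (0.733 to 0.961). Nr1h2 and Rxrb had ratios of 1.02 and 1.03, with intervals of 1.001 to 1.037 and 1.01 to 1.05. The interval excluded 1 for 9 of the 14 detected members, and since it covers counting error only, most of these differences are small ones measured on many counts. In TPM 12 of the 14 detected members were higher in replicate 1, but in TMM-scaled counts 9 were higher and 5 lower, so the direction of small differences depends on the scale.

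**Figure D3:**
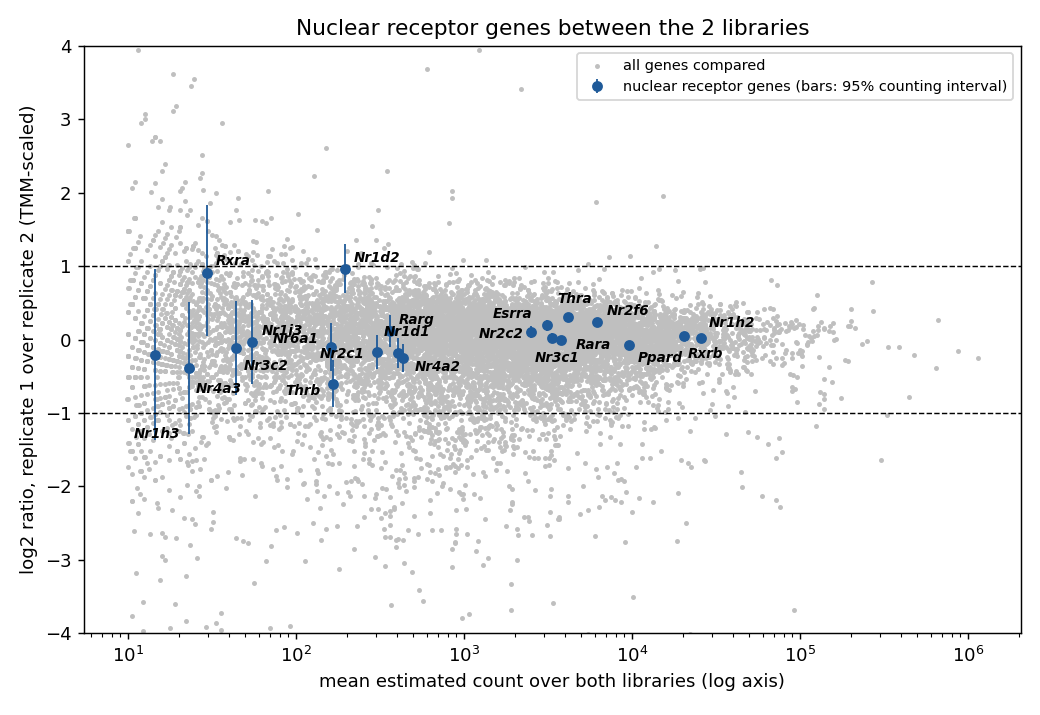
Log2 ratio of replicate 1 over replicate 2 in TMM-scaled counts against the mean estimated count (log axis), for 10863 genes (grey) and the 21 nuclear receptor genes compared (blue, with 95% counting intervals). Dashed lines mark 2-fold, no member lies beyond them, and 38 genes lie outside the plotted range.

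Transcript tables divide the reads of a gene among its models, and models share exons, so these shares are estimates. The 14 detected members have 90 models, and each had the same leading transcript in both libraries. The leading transcript was annotated as protein-coding for 12 of them and held more than 50% of the gene's TPM in both libraries for 10.

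Thra showed 2 main forms. Thra-202 had 52.6% of the gene's TPM in replicate 1 and 61.7% in replicate 2, and Thra-201 46.1% and 37.2%. Thra-201 ends further downstream, at 98769006 on chromosome 11, inside Nr1d1 on the opposite strand. Thra-202 ends at 98765111. The longer Thra form that overlaps Nr1d1 is known to encode TR alpha 2, which does not bind thyroid hormone. Exons of the 2 genes share 263 bases, 5.70% of those of Thra and 8.55% of those of Nr1d1. In TPM Thra-201 had 18.9 in replicate 1 and 11.6 in replicate 2, and the Nr1d1 gene 3.55 and 3.19, so the form reaching into Nr1d1 was the more abundant of the overlapping pair.

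Several members had much of their TPM in models not annotated as coding. The leading model of Nr1d2 was Nr1d2-202, a retained intron form, with 77.6% in replicate 1 and 79.5% in replicate 2. Its coding model had 0.49 and 0.22 TPM, so the detection of Nr1d2 rests on the retained intron form. Nr4a2 was led by Nr4a2-206, annotated for nonsense-mediated decay, with 60.1% and 44.7%. In Rxrb, retained intron forms held 31.7% in replicate 1 and 28.5% in replicate 2, most of it in the short Rxrb-204 at the 5′ end of the gene. Retained intron forms held 25.1% and 19.4% of Nr1h2. Processed transcripts, which have no open reading frame annotated, held 22.5% and 39.1% of Nr2f6 and 25.5% and 25.7% of Esrra. The coding models of Nr1h2 and Rxrb still held 74.9% and 68.3% in replicate 1 and 80.6% and 71.5% in replicate 2, so these genes remained the most abundant in coding forms. Nr3c1 was led by Nr3c1-208, a coding model outside the basic annotation set, with 56.5% and 56.3%. The longest Nr3c1 model with TPM, Nr3c1-203, had 13.9% and 17.3% of TPM, although it took 1765 of 3970 counts in replicate 1 and 1367 of 2740 in replicate 2. Per-length units give short models more weight, and the level of Nr3c1 depends on that.

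**Figure D4:**
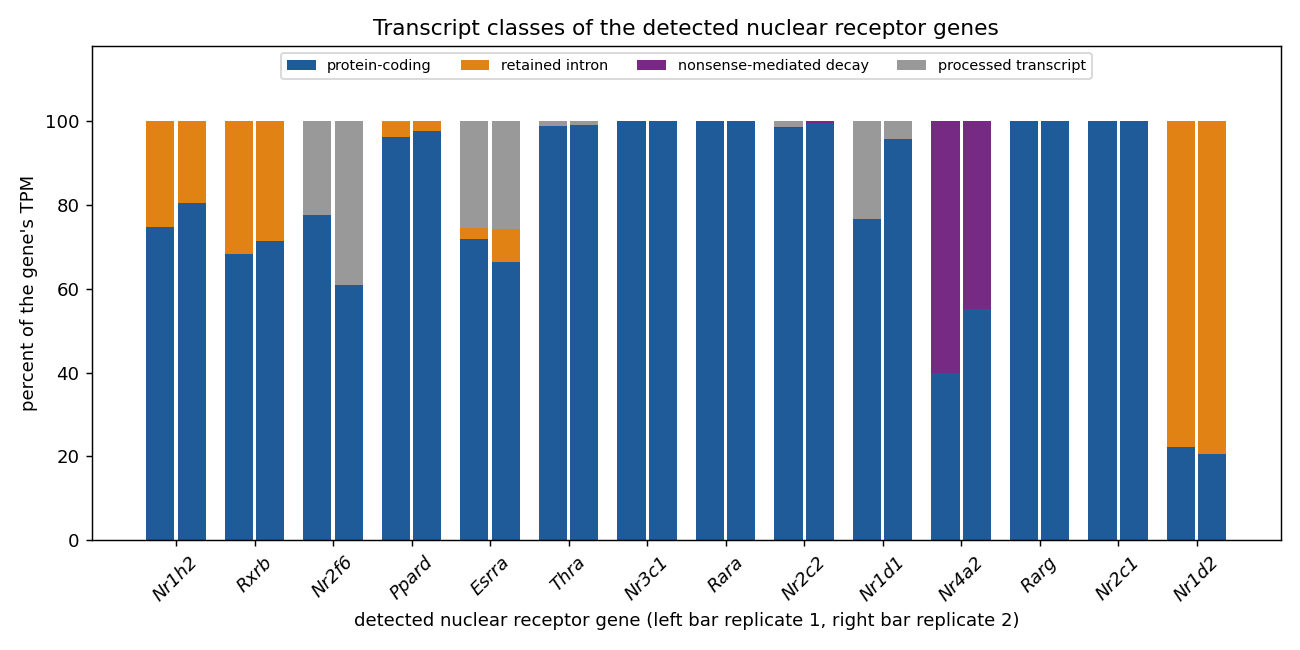
Percent of the TPM of each detected nuclear receptor gene (vertical axis) in transcript models of 4 annotation classes, with replicate 1 as the left bar and replicate 2 as the right bar of each pair. Nr1d2 is mostly retained intron and Nr4a2 divides between coding and nonsense-mediated decay models, while Rara, Rarg, Nr2c1 and Nr3c1 are wholly in models annotated as coding.

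The machinery that receptors work with was mostly present. Of 8 chaperones and cochaperones, which hold steroid receptors ready for ligand, 8 were detected, with a median of 307 TPM. The highest were Hspa8 at 870.0 TPM in replicate 1 and 1187 in replicate 2, Hsp90ab1 at 321 and 850.1, Fkbp4 at 394 and 478, and Cdc37 at 373 and 261 TPM. Hsp90ab1, an HSP90 form, was also the chaperone that differed more than 2-fold between the libraries in TMM-scaled counts, with a log2 ratio of -1.43. The other HSP90 form in the list, Hsp90aa1, went the other way, with a log2 ratio of 0.84. In TPM, Hsp90aa1 was more than 2-fold apart, at 405 in replicate 1 and 187 in replicate 2. Estimated counts of Hspa8 and Hsp90aa1 were not whole in either library, as arises where reads are divided among similar sequences. Their levels, and the ratio of Hsp90aa1, are therefore uncertain. Of 12 coactivators 11 were detected, with a median of 21.1 TPM. Carm1, an arginine methyltransferase, had 152 TPM in replicate 1 and 137 in replicate 2, the scaffold Ncoa6 71.1 and 46.9, the p160 family member Ncoa2 43.7 and 60.2, and the acetyltransferase gene Ep300 38.3 and 36.3 TPM. Ppargc1a, encoding the PPAR and ERR coactivator PGC-1 alpha, had no count, whereas its paralog Ppargc1b had 21.4 and 25.4 TPM.

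Of 11 corepressors 10 were detected, with a median of 19.4 TPM. Trim28 had 312 TPM in replicate 1 and 379 in replicate 2, Gps2, a subunit of the NCOR complex, 248 and 270.0, Dnmt1, the maintenance DNA methyltransferase, 133 and 172, and Ncor1 121 and 93.5 TPM. TRIM28, DNMT1, NCOR1 and the demethylase KDM1A are known from red cells as partners of TR2 and TR4. Kdm1a, chosen after its values were seen, had 26.3 and 19.4 TPM, so each of these partners was above both Nr2c2 and Nr2c1.

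Genes that make, bind or break down receptor ligands were mostly low. Of 21 such genes 2 were detected and 8 had no count in either library, with a median of 0.01 TPM. The detected genes were Fabp5, a fatty acid carrier, at 10.8 TPM in replicate 1 and 9.16 in replicate 2, and Rdh10, which makes retinaldehyde, at 5.07 and 3.73 TPM. The estimated counts of Fabp5 were not whole either, so its level is uncertain too. Retinaldehyde dehydrogenases, which take the next step to retinoic acid, stayed under 1 TPM, with Aldh1a1 at 0.33 and 0.21 TPM, Aldh1a2 at no count and Aldh1a3 at 2 and 0 counts. The deiodinases, which activate or inactivate thyroid hormone, had no more than 2 counts for Dio1, Dio2 or Dio3 in either library.

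Textbook target genes differed by receptor. A target's level cannot be ascribed to its receptor here, since there is no sample without ligand. Of 7 glucocorticoid receptor targets 7 were detected, with a median of 20.3 TPM, led by Klf9 at 35.4 TPM in replicate 1 and 30.1 in replicate 2, Tsc22d3 at 30.2 and 30.5, Per1 at 25.2 and 26.6 and Fkbp5 at 19.4 and 21.1 TPM. Fkbp5 is also among the chaperones. Sgk1, in the same list, had 1.27 and 2.20 TPM and was more than 2-fold lower in replicate 1, with a log2 ratio of -1.58 in TMM-scaled counts. Of 7 retinoic acid receptor targets 0 were detected, with a median of 0.04 TPM, beside Rara at 27.2 TPM in replicate 1 and 25.4 in replicate 2. The list shares 5 genes with that of ligand handling, and its highest, Dhrs3 and Cyp26a1, had 0.28 and 0.38 TPM in replicate 1 and 0.32 and 0.21 in replicate 2. Of 7 LXR targets 3 were detected. Srebf1, the activator of fatty acid synthesis, had 413 TPM in replicate 1 and 411 in replicate 2, the phospholipid enzyme gene Lpcat3 145 and 155, and Apoe 28.2 and 23.9 TPM. The cholesterol exporter gene Abca1 had 0.73 and 1.17 TPM, and Abcg1 no count.

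Of 7 PPAR targets 3 were detected, among them the lipid droplet gene Plin2 at 9.86 TPM in replicate 1 and 24.7 in replicate 2, and the fatty acid oxidation gene Acadm at 2.48 and 2.89 TPM. Plin2 was lower in replicate 1 by more than 2-fold in TMM-scaled counts, with a log2 ratio of -1.06, while Ppard had a ratio of 0.947. Of 9 clock partners and targets of REV-ERB and ROR 4 were detected, Tef at 53.7 TPM in replicate 1 and 90.3 in replicate 2, Dbp at 30.9 and 24.8, Per2 at 9.06 and 11.2 and Arntl at 2.95 and 3.07 TPM. The core clock gene Clock had 0.79 and 0.59 TPM, and Npas2, Nfil3 and Bhlhe40 had no count. Set against the 39.0% of protein-coding genes detected, the share was above it for chaperones, cofactors and glucocorticoid receptor targets, near it for LXR targets, PPAR targets and clock genes, and below it for ligand handling and retinoic acid receptor targets.

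**Figure D5:**
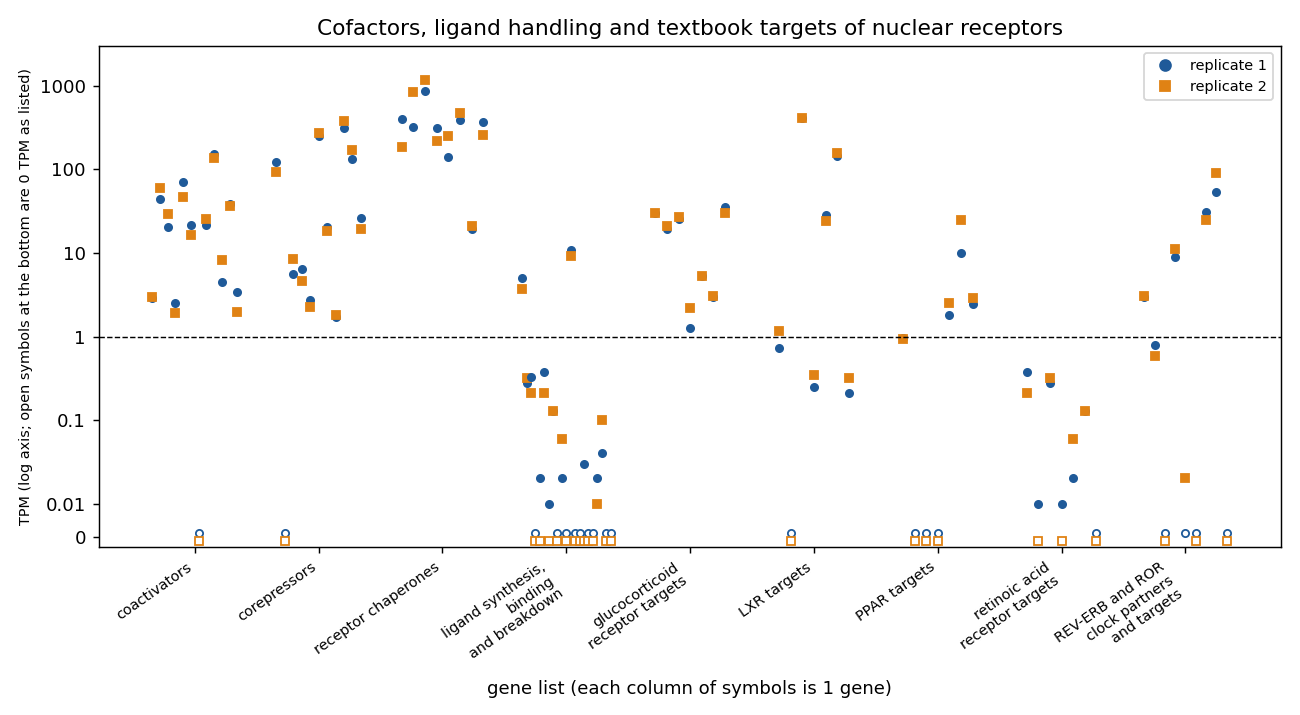
TPM (log axis) of each gene in 9 lists of receptor partners and targets in replicate 1 (circles) and replicate 2 (squares), with a dashed line at 1 TPM and open symbols for values listed as 0. All 8 chaperones and all 7 glucocorticoid receptor targets lie above the line in both libraries, and all 7 retinoic acid receptor targets lie under it.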

How the data were processed

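RNA described as polyadenylated in the titles, and as total RNA in the labels' molecule field, was measured in 2 libraries of 1 group. The gene tables hold estimated counts, TPM, FPKM and posterior mean TPM, as deposited by the authors, and the transcript tables also hold each model's isoform share in percent, which the authors deposited. Build and annotation are mm10 and GENCODE M4, per the labels and the deposited readme files. Aligner, quantifier and use of strand were not given in the sources used here. Names, classes, exons and coordinates came from GENCODE M21 (42462 of 43346 genes matched), promoters from RefSeq on GRCm38.p6.

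Estimated counts were rounded for ratios. TMM scaling came from edgeR 4.0.16 and the alternative size factors from DESeq2 1.42.0 in R 4.3.3. Intervals came from scipy 1.17.1. The ratio and its 2-fold call were tested on simulated counts. No test between groups exists, so levels are a description with the SD over 2 libraries. Detection means at least 1 TPM in each library, and ratios needed a mean of 10 counts. Depth was 68901065 and 51923116 estimated counts, which puts at least 2370 counts behind each member above 20 TPM.

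Members, classes and lists were chosen with earlier results of these data known. Every detected member, any member 2-fold apart and the 4 highest of each list were to be named, and all detected ones where fewer were detected, but not every such list gene is reported here. Zinc finger sequences were planned but no protein table was used, and promoters were chosen in their place after the data were seen. Alternatives were other minimums, FPKM, posterior means, other scalings, count filters and pseudocounts, and each library alone.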

Additional observations from a re-analysis of the deposited data

How the results depend on the processing

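Detection of members held within 1.5 times under every alternative, from 12 at a minimum of 2 TPM to 16 at 0.5 TPM, with 13 by FPKM (without Nr1d2) and 15 by posterior mean TPM (with Nr6a1). It was 14 with either library alone. The median over all 47 members, 0.02 TPM, was 0.21 by posterior mean TPM, which gives small values to genes without counts, 28.5 TPM over the detected members alone and 0.01 to 0.02 TPM with 1 library left out. The count of members 2-fold or more apart, 0, became 2 by library totals (Rxra at a log2 ratio of 1.02 and Nr1d2 at 1.07) and 1 on the log2(TPM + 0.1) scale (Nr3c2, at -1.0). It was 0 with DESeq2 size factors and on the log2(TPM + 1) scale. Without a count filter it was also 0, but the floor of 3 counts left the same 21 members compared. With a mean of 100 counts it was 0 among the 16 members left. Neither of these filter settings could raise the count, so they say nothing of its stability. The leading transcript was the same in both libraries for all 14 detected members by posterior means too. By FPKM 11 of 14 levels moved by more than the SD, all lower, since FPKM is scaled to another total, and by posterior mean TPM Nr4a2 moved to 3.45. In alternatives chosen after seeing the data, the leading member was the same in 14 classes by FPKM, posterior means, counts or replicate 1 alone and in 13 with replicate 2 alone, and 4 of 5 megakaryocyte markers were detected with replicate 2 alone. No paired analysis was possible because the 2 libraries form 1 group. The 7 members not detected with a mean of 10 or more counts had 13 to 184 counts, and it is the 1 TPM minimum that leaves them out. Depth limits what can be said of the 20 members with no count and the 6 with at most 3 counts. For the detected members the limit is the spread over 2 libraries of 1 biosample record.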
